A study of Arabidopsis thaliana with 8 samples.

Results

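STZ (AT1G27730, also called ZAT10) and PUB23 (AT2G35930) are stress regulator genes of Arabidopsis thaliana, each measured by 1 probe set. They are 2 of the 22746 probe sets, controls left out, of the ATH1 oligonucleotide array, and they were found by their annotated symbols. The pair was chosen by its measured signals on the 8 arrays described here, so those signals are a description and were not tested. The study, on group II-A WRKY proteins and early leaf senescence, hybridised biotin-labelled total RNA of rosettes, without stem and flowers, to 1 array per sample. Plants were 35 days old, had just begun to bolt and grew in a chamber in soil treated with imidacloprid, an insecticide, as all groups did.

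The first group held 6 arrays of plants labelled as WRKY T-DNA knockouts, 1 array for each of the lines KO-02, KO-07, KO-30, KO-40, KO-54 and KO-56. A T-DNA insertion is a piece of DNA placed in a gene that usually disrupts it. The second group held 2 arrays of the accession Col-0, titled L and S, letters that the labels do not explain. Which gene each line carries the insertion in is not stated, so no line was checked against its label, and every line was a single sample. Whether replicate arrays hold separately grown plants is not stated, so p-values refer to the spread among these arrays, which may be technical. The 6 arrays of the first group are of different lines, so their SD and the SE may also hold differences between lines.

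STZ encodes a zinc finger protein of the C2H2 type that represses transcription. Its transcript is known to accumulate quickly after salt, drought, cold, wounding and strong light, and the protein has been linked both to tolerance and to sensitivity to such stresses. PUB23 encodes a U-box ubiquitin ligase, an enzyme that tags other proteins with ubiquitin, often for breakdown by the proteasome. With its close relatives PUB22 and PUB24 it dampens the immune response to microbial patterns, and PUB22 and PUB23 also act in the response to drought, where they ubiquitinate the proteasome subunit RPN12a.

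The arrays were comparable in overall level. After removal of the lowest and highest 2% of probe sets the mean signal was 100.0 on every array, and the medians lay between 36.0 and 39.1. Over all probe sets, Pearson's r of any pair of arrays was at least 0.976 and at most 0.987, with 0.984 for the Col-0 arrays. RNA quality differed, as read from the actin control's 3' to 5' signal ratio, which is larger where RNA is more degraded. KO-54 had a ratio of 29.5 and KO-30 one of 15.4, while the remaining arrays had ratios between 8.41 and 12.0. Leaf genes were bright, with the summed signal of RCA, LHCB4.1 and LHCB4.2, the 3 of 26 listed leaf genes measured, between 9201 and 10759 in the lines and between 10440 and 12977 in Col-0. Of 4 genes listed for guard cells, only SPCH and MUTE, genes of stomatal development, were measured, and FAMA and MYB60 were not. SPCH and MUTE were near the floor, summing to between 4.21 and 14.1 in the lines and between 4.75 and 10.3 in Col-0. Nothing on mature guard cells is read from them. None of the listed flower genes (0 of 10) or root genes (0 of 9) had a probe set with a single gene name.

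STZ, the repressor, was higher in most lines than in Col-0. Its signal was 566 in KO-02, 767 in KO-07, 603 in KO-30, 952 in KO-40, 791 in KO-54 and 476 in KO-56, against 459 for Col-0-L and 550 for Col-0-S. KO-40 stood highest, and KO-56 was the only line between the Col-0 arrays. Thus 5 of 6 lines lay above both Col-0 arrays and 0 lay below both. The mean signal was 692 ± 175 (SD, n = 6) in the lines and 504 ± 64.1 (SD, n = 2) in Col-0, a ratio of 1.37. On the scale used for all genes, log2 of the signal plus 5, the lines minus Col-0 difference was 0.42 ± 0.23 (SE). In RNA of whole rosettes, more cells of a type and more RNA per cell cannot be told apart.

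PUB23, the ubiquitin ligase, was higher in each of the lines. Its signal was 37.8 in KO-02, 52.8 in KO-07, 40.9 in KO-30, 61.8 in KO-40, 51.7 in KO-54 and 33.3 in KO-56, against 27.8 for Col-0-L and 27.6 for Col-0-S. The groups did not overlap, and the lowest line was again KO-56. Over all 15922 probe sets past the filter on dim signals, 3.13% had all 6 lines above both Col-0 arrays. PUB23 averaged 46.4 ± 10.8 (SD, n = 6) in the lines and 27.7 ± 0.140 (SD, n = 2) in Col-0, a ratio of 1.67, and the log2 difference was 0.62 ± 0.20 (SE). The pseudocount of 5 makes this difference smaller than the ratio of signals, since the PUB23 probe set lay close to the array medians. No detection calls were used here.

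**Figure D1:**
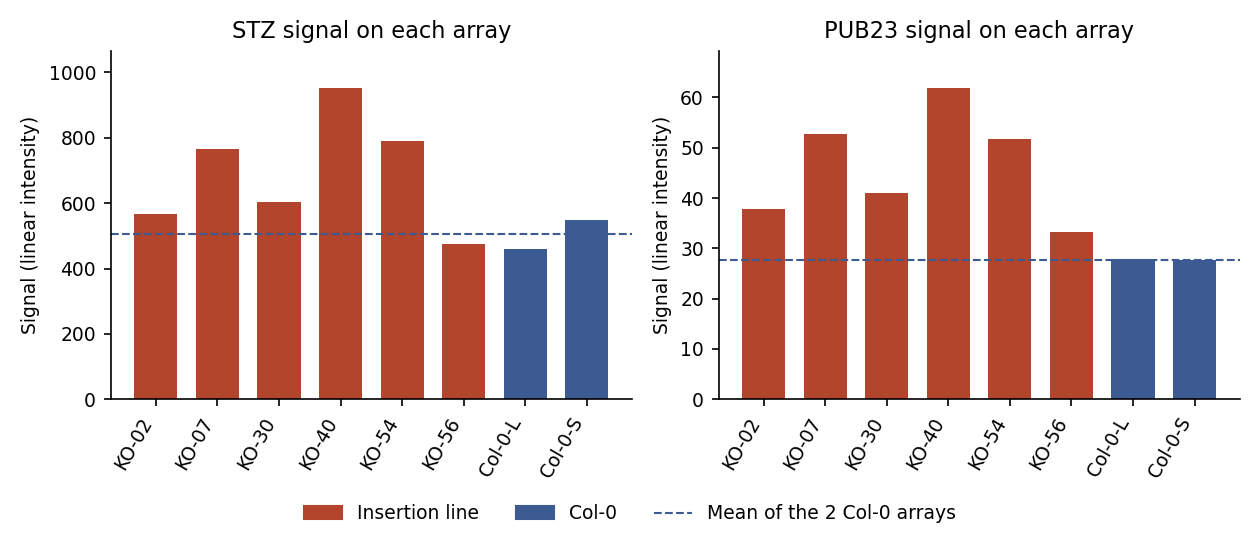
Signal of STZ (left) and PUB23 (right) on each array, on a linear intensity scale that starts at 0; red bars are the 6 insertion lines, blue bars the 2 Col-0 arrays, and the dashed line is the Col-0 mean. STZ runs from 476 in KO-56 to 952 in KO-40 among the lines, PUB23 from 33.3 in KO-56 to 61.8 in KO-40, and only the PUB23 bars of all 6 lines stand above both Col-0 bars.

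The Col-0 arrays lay further apart for STZ than for PUB23. The Col-0-L minus Col-0-S difference was -0.26 ± 0.42 (log2, SE) for STZ and 0.01 ± 0.36 for PUB23. With 1 array on each side, these SE hold no spread within Col-0. They come from the spread among the 6 lines, which limma moderates toward the spread of all probe sets tested. As a yardstick, the median gap within the Col-0 pair was 0.12 over the 438 probe sets whose mean lay within 0.25 (log2) of that of STZ, and 0.19 over the 1719 probe sets as close to PUB23. The Col-0 gap of STZ thus lay above the median for its level and under the 90th percentile of 0.33. The small Col-0 spread of PUB23 rests on 1 pair of arrays.

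The order of STZ levels was KO-40, KO-54, KO-07, KO-30, KO-02, Col-0-S, KO-56 and Col-0-L. Steps wider than the median Col-0 gap separated KO-40 from KO-54 (0.27, log2), KO-07 from KO-30 (0.35) and Col-0-S from KO-56 (0.21). Only the step from KO-07 to KO-30 was above the 90th percentile of that gap, 0.33. Neighbours in a sorted order tend to lie closer than a pair fixed in advance. A narrow step thus does not show that arrays are alike. The remaining neighbours differed by less, namely KO-54 and KO-07 (0.04), KO-30 and KO-02 (0.09), KO-02 and Col-0-S (0.04), and KO-56 and Col-0-L (0.05). The upper lines were KO-40, KO-54 and KO-07. KO-30 lay 0.13 above Col-0-S, slightly more than the median gap, KO-02 lay 0.04 above it, and KO-56 lay 0.05 above Col-0-L.

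For PUB23 the order was KO-40, KO-07, KO-54, KO-30, KO-02, KO-56, Col-0-L and Col-0-S. The steps wider than the median Col-0 gap lay between KO-40 and KO-07 (0.21, log2), between KO-54 and KO-30 (0.30) and between KO-56 and Col-0-L (0.22). Each of them was under the 90th percentile of the Col-0 gap at the level of PUB23, 0.50, with the same limit for sorted neighbours. The steps between KO-07 and KO-54 (0.03), KO-30 and KO-02 (0.10), KO-02 and KO-56 (0.16) and the Col-0 arrays (0.01) were narrower. The same lines, KO-40, KO-07 and KO-54, formed the upper part for both genes. The ratio of the highest to the lowest line, KO-40 over KO-56, was 2.00 for STZ and 1.85 for PUB23.

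Each line was also set against the Col-0 mean, and these comparisons share both Col-0 arrays. In KO-40 the log2 difference was 0.92 ± 0.30 (SE) for STZ, a 1.89-fold higher value, and 1.03 ± 0.26 for PUB23, which is 2.04-fold. In KO-54 it was 0.65 ± 0.35 for STZ and 0.79 ± 0.30 for PUB23, and in KO-07 it was 0.61 ± 0.36 and 0.82 ± 0.30. The differences were smaller in KO-30, with 0.26 ± 0.36 for STZ and 0.49 ± 0.30 for PUB23, and in KO-02, with 0.17 ± 0.35 and 0.39 ± 0.29. KO-56 had -0.08 ± 0.29 for STZ and 0.23 ± 0.25 for PUB23. The SE rests on the spread of the Col-0 pair and of the other 5 lines, since each line has 1 array. It is moderated by limma in the same way.

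The choice of Col-0 array mattered for STZ. Against Col-0-L alone its log2 difference was 0.30 in KO-02, 0.73 in KO-07, 0.39 in KO-30, 1.04 in KO-40, 0.78 in KO-54 and 0.05 in KO-56. Against Col-0-S alone it was 0.04, 0.48, 0.13, 0.79, 0.52 and -0.21 in the same lines, so that KO-56 changed sign. For PUB23 the difference in a line moved by no more than the 0.01 that separated the Col-0 arrays.

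**Figure D2:**
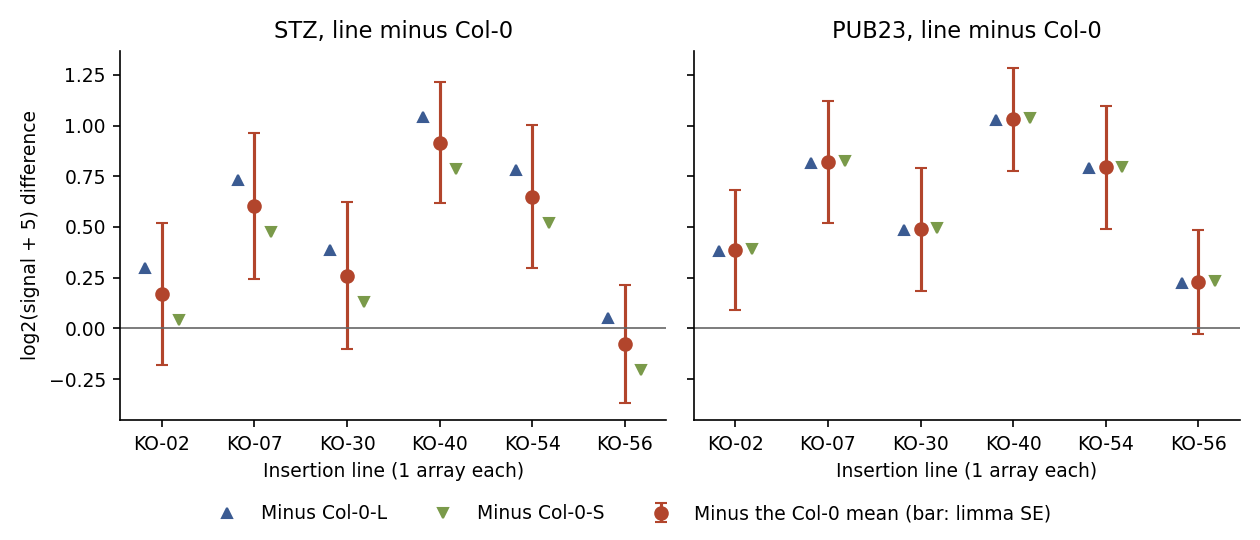
Difference of each insertion line from Col-0 for STZ (left) and PUB23 (right), in log2(signal + 5); red points with bars are the difference from the Col-0 mean and its SE, and triangles are the differences from Col-0-L and from Col-0-S alone. KO-40 is highest for both genes, at 0.92 for STZ and 1.03 for PUB23, and the triangles lie apart for STZ and together for PUB23.

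limma, fitted over all 15922 probe sets with Benjamini-Hochberg adjustment, was used to see how many genes of any kind differed. At an adjusted p below 0.05 it called 0 probe sets (0%) between the 6 lines and Col-0, or 1 with trended and robust variances, and 593 had an unadjusted p below 0.05. Chance alone would give such an unadjusted p in a share of 0.05 of the probe sets, which is more than 593. The same share is the yardstick for the unadjusted counts that follow. By line limma called 0 (0%) in KO-02, KO-07 and KO-40, 1 (0.00628%) in KO-30, 11 (0.0691%) in KO-54 and 1 (0.00628%) in KO-56. The number with an unadjusted p below 0.05 was 364 in KO-02, 263 in KO-07, 1350 in KO-30, 1064 in KO-40, 1676 in KO-54 and 876 in KO-56. Between Col-0-L and Col-0-S, judged by the spread of the lines alone, it called 0 (0%), with 520 unadjusted. Neither STZ nor PUB23 was among the calls of limma in any of these 8 comparisons, and nothing is read from that, because they were chosen on the same arrays.

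The spread of both genes over the arrays was set beside that of other probe sets. From the lowest to the highest of the 8 arrays STZ spanned 1.04 (log2) and PUB23 1.03. A wider span was found in 9.74% of the 15922 probe sets for STZ and in 10.1% for PUB23. Among the probe sets of like level the shares were 2.28% for STZ and 8.96% for PUB23. The SD over the 6 lines alone was 0.37 for STZ and 0.30 for PUB23, exceeded by 9.06% and 16.3% of all probe sets.

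STZ and PUB23 had nearly the same profile over the arrays. Each log2 profile was centred on its own mean over the 8 arrays, and likeness was measured as the root mean square difference between 2 profiles. It was 0.123 between STZ and PUB23, against a median over all probe sets of 0.395 to STZ and 0.407 to PUB23. Ranked by likeness over the 15922 probe sets, PUB23 held rank 25 for STZ, and STZ held rank 10 for PUB23. The largest departure between them, 0.29, was on Col-0-S, where STZ was relatively high. The pair was chosen by its signals on these 8 arrays, which are the same hybridisations for both genes. The likeness and the ranks are thus a description over 8 points and no independent support.

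The 6 singly annotated genes most like STZ carried no name beyond their locus in the annotation used here. The closest was AT2G25735, at a root mean square difference of 0.049, with a signal of 242 in KO-40, 189 in KO-54, 180.4 in KO-07, 142 in KO-30, 126 in KO-02 and 111 in KO-56, against 113 for Col-0-L and 129 for Col-0-S. Its order of arrays thus began with KO-40, KO-54, KO-07 and KO-30, as for STZ. Next came AT2G26190 (0.086), AT1G66880 (0.086), AT5G25930 (0.102), AT5G39670 (0.113) and AT3G13950 (0.114). Their lines minus Col-0 differences lay between 0.34 in AT3G13950 and 0.40 in AT2G26190 (log2), and that of AT2G25735 was 0.39. The most opposite profiles were those of AT1G32610 (0.107 to the mirrored profile) and AT1G70280 (0.121), with differences of -0.31 and -0.37.

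The genes most like PUB23 included several with known functions. SAL2, from the family of the phosphatase SAL1 that acts in stress signalling, was closest at 0.083. It had 75.8 in KO-02, 108 in KO-07, 81.2 in KO-30, 130.3 in KO-40, 109.8 in KO-54 and 64.5 in KO-56, against 66.9 for Col-0-L and 55.9 for Col-0-S. Only KO-56 lay between the Col-0 arrays. AT2G25200 (0.101) and AT5G39520 (0.111) followed, with lines minus Col-0 differences of 0.48 and 0.68. Both had all 6 lines above both Col-0 arrays, as had 3.13% of all probe sets.

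WRKY53, a WRKY factor that promotes leaf senescence, was the fourth most like PUB23 at 0.119. Its signal was 248 in KO-02, 326 in KO-07, 263 in KO-30, 387 in KO-40, 311 in KO-54 and 179 in KO-56, against 211 for Col-0-L and 190 for Col-0-S. KO-56 was thus below both Col-0 arrays and the other 5 lines above both. The cytochrome P450 gene CYP71B23 (0.121, difference 0.48) had all 6 lines above both Col-0 arrays, as had 3.13% of all probe sets. STZ itself (0.123) was the sixth. In the opposite direction AT2G31420 (0.119 to the mirrored profile) had a difference of -0.62, with all 6 lines below both Col-0 arrays, as had 3.1% of all probe sets. AT1G70280 (0.145) was again among the opposite profiles.

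No gene was on both lists of 6. Of the 11 different genes besides STZ and PUB23, all 11 were highest in KO-40, 10 had KO-56 as their lowest line, and 3 had all 6 lines above both Col-0 arrays. Genes alike to STZ or PUB23 share this order by construction. Over all probe sets KO-40 was the highest array for 12.3% and KO-56 the lowest line for 17.5%. All 6 lines lay above both Col-0 arrays for 3.13%. The lines minus Col-0 differences of the like genes are given without a test, since these genes were picked by their profiles on the same arrays.

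**Figure D3:**
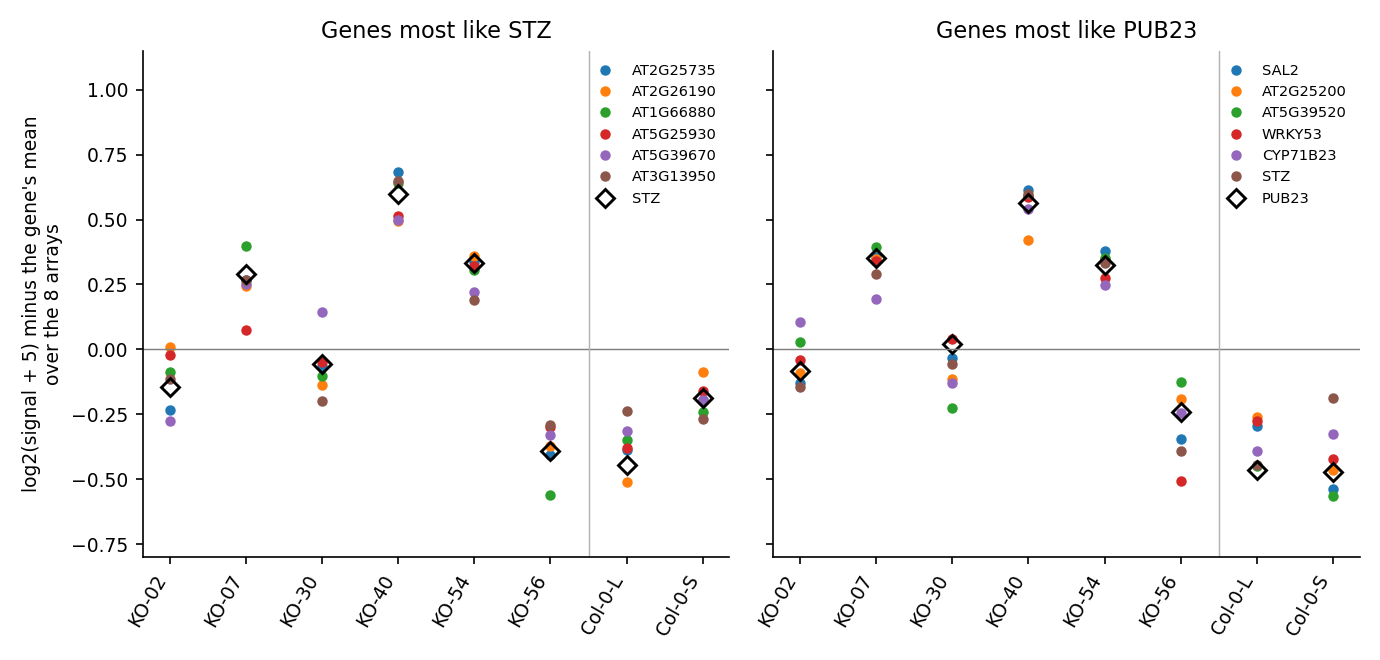
Centred profiles, log2(signal + 5) minus each gene's mean over the 8 arrays, of the 6 genes most like STZ (left) and PUB23 (right), by array, lines left and Col-0 right of the grey bar; open diamonds are STZ and PUB23, coloured points the like genes. All 11 different genes besides the pair are highest in KO-40, and in 10 of them KO-56 is the lowest line.

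Other genes of the pathways in which STZ and PUB23 act were examined as lists, of which only the genes with a singly annotated probe set past the filter could be tested. limma called 0 of them up and 0 down in the comparison of lines with Col-0, and 0 in each of the other 7 comparisons. For all probe sets the median lines minus Col-0 difference was -0.01 (log2). No relative of STZ from the ZAT list (0 of 27 names) had such a probe set, so none was compared.

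Among U-box ligase genes, the family of PUB23, 8 of 68 names were measured besides PUB23 and 7 passed the filter, PUB15 being too dim. Of the 7, 3 were higher in the lines, and the median difference was -0.08. The close relatives of PUB23 had differences of opposite sign, neither called. PUB24 averaged 84.1 ± 15.6 (SD, n = 6) in the lines and 64.3 ± 11.7 (SD, n = 2) in Col-0, which is a log2 difference of 0.35 ± 0.18 (SE), with its highest signal in KO-40. PUB22 averaged 10.4 ± 1.79 in the lines and 12.3 ± 0.981 in Col-0, a difference of -0.17 ± 0.14. Its signals were far below the array medians, where the pseudocount weighs most.

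PUB24 was at a root mean square difference of 0.181 from PUB23, against 0.465 for PUB22. Of the other U-box genes, PUB43 had a difference of 0.27 ± 0.13 and PUB19, which acts against drought responses, one of -0.24 ± 0.16. PUB25 and PUB26, ligases with parts in cold response and immunity, had 0.08 and -0.08.

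Rapid stress response genes, known like STZ to react within a short time to touch, cold, wounding or elicitors, had 8 of 96 names measured, all past the filter. Of these, 7 were higher in the lines and the median difference was 0.27, with 0 called. Without Col-0-L the median was 0.14. The largest was in CML38, a calmodulin-like calcium sensor, which averaged 246 ± 64.3 (SD, n = 6) in the lines and 158 ± 60.1 (SD, n = 2) in Col-0, a difference of 0.63 ± 0.29. WRKY53 had 286 ± 71.9 and 200.2 ± 14.9, a difference of 0.46 ± 0.24. WRKY6, a WRKY factor of senescence and defence, had 44.9 ± 13.5 and 30.6 ± 0.847, a difference of 0.44 ± 0.24.

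The level of the rapid genes varied between lines. Their median difference from Col-0 was 0.10 in KO-02, 0.49 in KO-07, 0.18 in KO-30, 0.88 in KO-40, 0.44 in KO-54 and -0.11 in KO-56, and the median between Col-0-L and Col-0-S was -0.20. Over all probe sets the median difference in these lines lay between -0.03 and 0.01. KO-40 was the highest array for 5 of the 8 genes, and KO-56 the lowest line for 5 of 8. Over all probe sets these shares were 12.3% and 17.5%. WRKY53, which is in both counts, was also among the genes picked by their likeness to PUB23. CML37, a relative of CML38, had 64.7 in KO-40 and 11.9 in KO-56, against 26.1 for Col-0-L and 32.4 for Col-0-S. GRX480, a glutaredoxin of salicylic acid signalling, was highest in KO-40 with 115, against 62.8 for Col-0-L and 59.3 for Col-0-S.

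Of the remaining rapid genes, EXO and WRKY22 had other orders. EXO, a growth gene that responds to brassinosteroids, had 1420.2 in KO-30 and between 502 and 866 in the other lines, against 378 for Col-0-L and 957 for Col-0-S. WRKY22 had 29.4 in KO-56, its highest array, and 21.0 in KO-54, its lowest line, against 22.8 for Col-0-L and 25.6 for Col-0-S. ORA47, an activator of jasmonate synthesis, was highest in KO-40, and KO-56 was its lowest line, as for STZ. Its lines minus Col-0 difference was -0.03 ± 0.17.

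Abscisic acid signalling genes had 4 of 68 names measured, all past the filter, with 2 higher in the lines and a median difference of -0.01, or 0.07 without Col-0-L. These were genes of cold and dehydration tolerance, and for all 4 KO-40 was the lowest line, as it was for 15.6% of all probe sets. TAPX, GR, TUB6 and RPN12a of other lists also had KO-40 as their lowest line. The protective chloroplast protein gene COR15A had 1417 in KO-40 and between 1640 and 2358 in the other lines, against 1898 for Col-0-L and 1989 for Col-0-S. The dehydrin gene COR47 had 1486 in KO-40 and between 1801 and 1970 in the other lines, against 1982 for Col-0-L and 1771 for Col-0-S. The lines minus Col-0 differences were -0.04 ± 0.18 for COR15A and -0.03 ± 0.13 for COR47.

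Pattern-triggered immunity genes, the process that PUB22, PUB23 and PUB24 dampen, had 5 of 59 names measured besides PUB23 and past the filter, of which 4 were higher in the lines (median 0.11). The median was -0.00461 without Col-0-L and 0.25 with the filter at the 50th percentile. PUB22 and PUB24 are among the 5, as above. BIK1, a kinase below the pattern receptors, had 0.14 ± 0.16, and EFR, the receptor for bacterial elongation factor Tu, had 0.11 ± 0.16. From the proteasome list of 85 names the subunit gene RPN12a alone was measured, and it had a difference of 0.05 ± 0.11.

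Antioxidant enzyme genes, some of which have been tied to STZ in light stress, had 5 of 47 names measured and past the filter, with a median difference of -0.05, or -0.14 without Col-0-L. UGT73B5, the one higher in the lines (0.39 ± 0.21), is a glycosyltransferase gene and not an antioxidant enzyme gene. It was matched to the list and counts in its median. With the filter at the 50th percentile, which UGT73B5 did not pass, the median was -0.12. SAPX, the stromal ascorbate peroxidase gene, was level (0.00). TAPX, the thylakoid ascorbate peroxidase, lay below both Col-0 arrays in all 6 lines, between 231 in KO-40 and 275 in KO-56, against 312 for Col-0-L and 287 for Col-0-S, a difference of -0.20 ± 0.11. Over all probe sets, 3.1% had all 6 lines below both Col-0 arrays. Salt tolerance genes were limited to 2 of 36 names, the vacuolar proton pump genes VHA-A2 (-0.05 ± 0.14) and VHA-A3 (-0.02 ± 0.11).

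Jasmonate synthesis genes had 3 of 29 names measured and past the filter, 2 of them higher in the lines (median 0.10, or 0.36 without Col-0-S and 0.02 without KO-56). OPCL1, which activates a jasmonate precursor, had 0.24 ± 0.20 and the methyltransferase gene JMT had 0.10 ± 0.23. Reference genes, 4 of 25 names, had 2 higher and a median of -0.05, led by GAPC2 (-0.18 ± 0.11) and TUB6 (-0.12 ± 0.10).

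**Figure D4:**
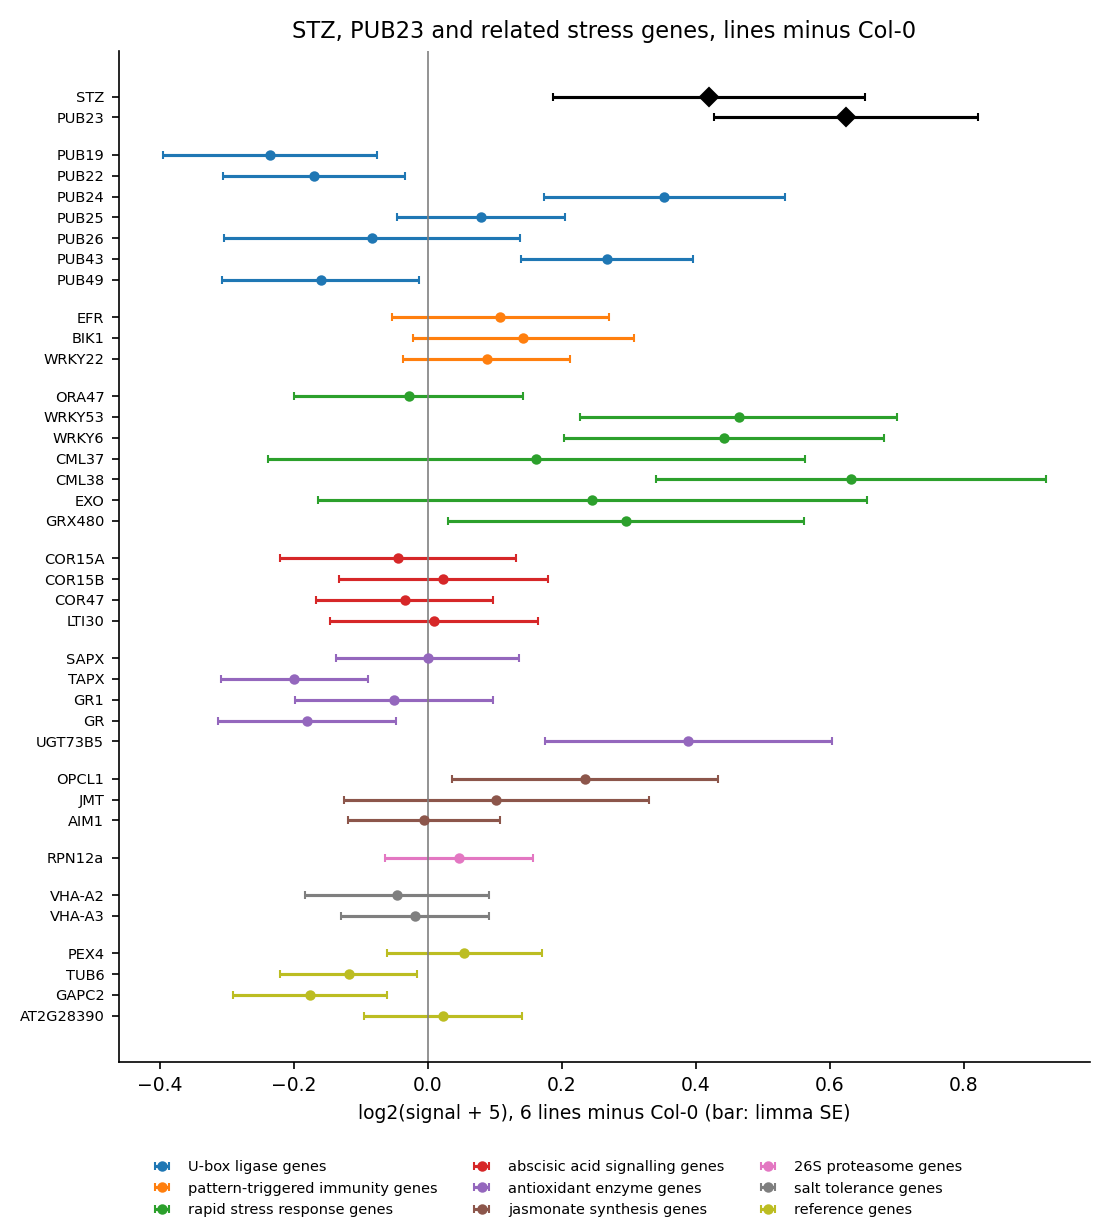
Lines minus Col-0 difference in log2(signal + 5) with its limma SE for STZ and PUB23 (black diamonds, above) and for the listed genes past the filter (points, coloured by list, each gene drawn once although PUB22, PUB24 and WRKY22 stand in 2 lists). STZ is at 0.42 and PUB23 at 0.62; CML38 at 0.63, WRKY53 at 0.46 and WRKY6 at 0.44 lie close to them, and PUB22 is at -0.17.

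RNA quality was set beside both genes, and its part in their levels was not tested. KO-40, highest for STZ and PUB23, had the lowest 3' to 5' ratio of the first actin set, 8.41. KO-54, with the highest such ratio of 29.5, was among the upper lines for both. KO-07, also among the upper lines, had 12.0, and KO-56, lowest of the lines for both, had 9.91, against 9.98 for Col-0-L and 10.9 for Col-0-S. With KO-54 and KO-30 left out, 3 of 4 lines stayed above both Col-0 arrays for STZ and 4 of 4 for PUB23.

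**Figure D5:**
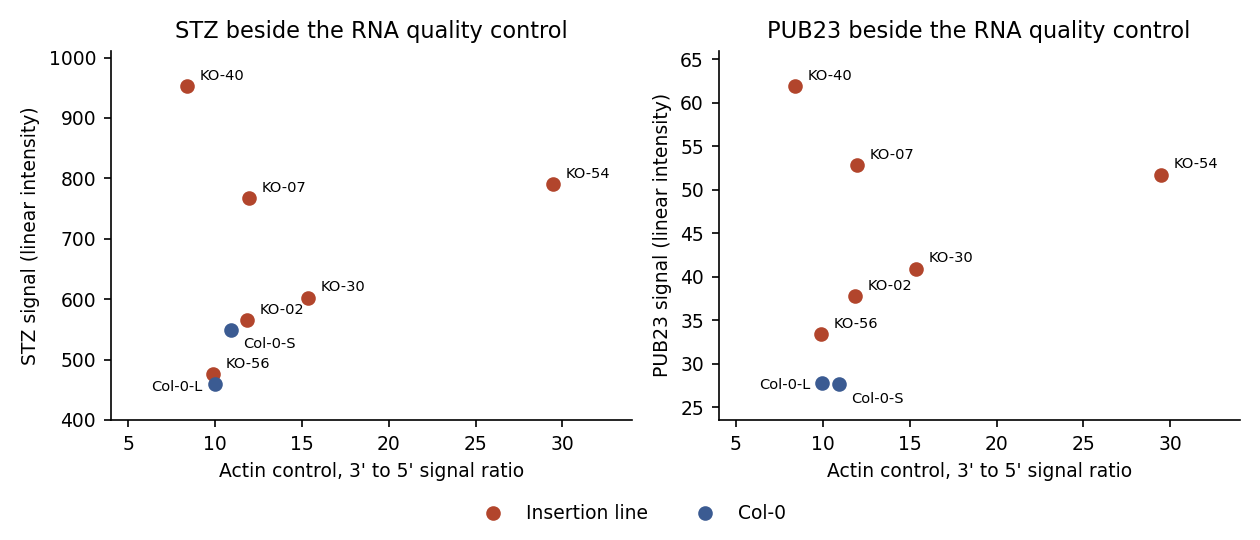
Signal of STZ (left) and PUB23 (right) against the actin control's 3' to 5' signal ratio, 1 point per array; red points are the insertion lines and blue points Col-0, and the vertical axes do not start at 0. The array with the highest signal, KO-40, has the lowest ratio (8.41), and KO-54, with a ratio of 29.5, lies below KO-40 and above KO-30 for both genes.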

How the data were processed

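Total RNA of 8 rosette samples was measured on ATH1 arrays. The authors deposited 1 linear intensity per probe set. Per the submitters' processing notes the tool was MAS5, version not given in the sources used here. That scaling was kept. All values were above 0, and each array's column matched a sample's labels.

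From 22810 probe sets 64 controls were removed. A pseudocount of 5 (rounded 20th percentile of signals) was added before log2, which understates changes of dim genes. Probe sets with a mean log2 value above the 30th percentile, 15922, were tested with limma 3.58.1 in R 4.3.3, the 6 lines against Col-0 (6 residual degrees of freedom) and each line against Col-0 with the other 5 lines as a further level (5 residual degrees of freedom). Col-0-L was set against Col-0-S with the 6 lines as a further level, so that its spread is that of the lines. In every fit limma moderated the spread of a probe set toward that of all probe sets tested. The procedure was tested on simulated data.

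The platform annotation gave 1 symbol for 13513 of the 22746 probe sets, several for 503 and listed none for 8730. Symbols were updated through a TAIR10.1 gene table, which held 13436 of those with 1 symbol. STZ, PUB23 and the lists were chosen with earlier results of these data known. Named genes were STZ, PUB23, the 6 singly annotated genes most like each and the 2 most opposite, and in each list the genes called or, with none, the 2 with the largest differences. Other list genes given with values were chosen after their values were seen. Alternatives were pseudocounts of 1 and 21 (40th percentile), no filter or one at the 50th percentile, quantile normalization, median centring, trended and robust variances, each array left out, and KO-54 with KO-30 left out.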

Additional observations from a re-analysis of the deposited data

Results flagged for a closer look

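In KO-54 the first actin control set had a 3' to 5' ratio of 29.5 and the first GAPDH set one of 2.46, both far above the other 5 lines. Actin lay between 8.41 and 15.4 there, and GAPDH between 1.21 and 1.62. STZ (791) and PUB23 (51.7) were high in KO-54 as well, below KO-40 and above both Col-0 arrays, and the part of RNA quality in that was not tested.

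COR47 had a signal of 1486 in KO-40, far below the other 5 lines, which lay between 1801 and 1970. KO-40 was also the array with the highest STZ and PUB23 signals. Such gaps were looked for in 57 groups of 6 lines and found in 6, of which 5 were ratios of the RNA quality controls in KO-54. Chance gives such a gap in about 1 in 20 groups. Neither STZ nor PUB23 had one.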

How the results depend on the processing

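STZ and PUB23 kept the direction of their lines minus Col-0 difference under all 16 alternatives, with ranges of 0.29 to 0.55 (log2) for STZ and 0.45 to 0.70 for PUB23. KO-40 stayed the highest and KO-56 the lowest line wherever they were kept in. After median centring 4 lines, not 5, lay above both Col-0 arrays for STZ. Without Col-0-S the STZ difference of KO-56 turned to 0.0511, and the PUB23 difference between Col-0-L and Col-0-S turned to -0.0225 after quantile normalization and -0.0374 after median centring. With the pseudocount of 21 the PUB23 difference of KO-40 fell to 0.77. The genes most like STZ and PUB23 were less stable: 3 of 6 were shared with the reported ones under 6 of 16 alternatives for STZ, and 2 or 3 of 6 under 5 of 16 for PUB23, among them leaving out KO-40, KO-54 or Col-0-S. The median of the U-box genes turned positive with the filter at the 50th percentile (0.08), without KO-56 (0.02) and without Col-0-S (0.07). Over the 16 alternatives the median ran from 0.14 to 0.39 for rapid stress genes, -0.09 to 0.07 for abscisic acid genes, -0.00461 to 0.25 for immunity genes, -0.14 to -0.00184 for antioxidant genes, 0.02 to 0.36 for jasmonate genes and -0.09 to -0.03 for reference genes.

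Counts of probe sets called by limma moved most in KO-54, with 11 as reported, 20 with a pseudocount of 1, 7 with a pseudocount of 21, 0 without the filter, 18 with trended and robust variances, and between 0 and 17 with each array left out in turn. Of these, the count was 0 without KO-02, KO-07, KO-40 or Col-0-L, 1 without Col-0-S and 17 without KO-56. In KO-56, 1 was called as reported, 6 without the filter, 0 with a pseudocount of 21, with the stricter filter, with trended and robust variances or without KO-54 and KO-30, and between 0 and 3 with each array left out. In KO-40 the count was 4 with a pseudocount of 21, 1 with trended and robust variances and between 0 and 1 with each array left out. It was 2 without the filter in KO-30, and 1 for the lines together with trended and robust variances. The cause of these moves was not tested. No paired analysis was possible because each line has 1 array and shares no replicate with Col-0. The number of arrays limits every value, and the level of PUB23 near the array medians limits it further.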
